A study of Homo sapiens and Canis lupus familiaris with 27 samples.

Results

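The E2F transcription factors and the RB genes were followed through 3 prostate carcinoma cell lines treated with the indolylmaleimide PDA-66. The members were taken by name from the gene count tables: E2F1 to E2F8, RB1 and RBL1. All 10 were found among the 23708 genes listed for each human cell line and among the 16028 genes listed for the canine cell line, and all 10 passed the filter on low counts in every cell line. PC-3 (human, from a bone metastasis), LNCaP (human, from a lymph node metastasis) and CT1258 (canine) were incubated for 12 h or 24 h with PDA-66 at 15 μM, or for 24 h with the vehicle, 0.15% DMSO. Per the study, samples are separate biological replicates. There were 3 in each group, but 2 in PC-3 DMSO. No 12 h DMSO sample is labelled, so the 12 h and 24 h groups share their controls, and after 12 h the treatment cannot be told apart from the shorter culture. Each cell line is 1 model of the disease, and CT1258 is the only canine line.

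E2F proteins bind the promoters of genes for DNA replication and cell division, mostly as dimers with a DP protein. E2F1, E2F2 and E2F3 are the activators, E2F4, E2F5 and E2F6 act mainly as repressors, and E2F7 and E2F8 are atypical repressors that bind DNA without a DP partner and are themselves E2F targets. The pocket proteins RB1 (pRb) and RBL1 (p107) hold E2Fs inactive until cyclin-dependent kinases phosphorylate them in late G1 phase. RB1 is a tumour suppressor gene that is often lost in advanced prostate carcinoma. Much of this regulation acts on the proteins, whereas poly(A) RNA was measured here, and in a bulk sample more cells in a cell cycle phase and more RNA per cell cannot be told apart.

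Total counts per sample lay between 11923105 and 18091755 in the human cell lines. The CT1258 controls held 2.639 times as many counts as the PDA-66 samples of that line. The common biological coefficient of variation, the typical spread of a gene between replicates, was 0.0972 in PC-3 and 0.1 in CT1258 but reached 0.24 in LNCaP. One LNCaP library, replicate 2 of the 12 h group, stood apart, with a mean correlation of log2 values of 0.93 with the other samples of its group. In CT1258, the DMSO replicate 2 was the control least like the others, at 0.984. Defining markers were checked first. All 7 luminal prostate markers, KLK3 among them, were detected in LNCaP. In the PC-3 controls, KLK2 and KLK3 were at 0, while the summed luminal list lay between 753.6 and 813.7 CPM, of which HOXB13 held a mean of 780.8 CPM. HOXB13 fell to 251.6 CPM after 12 h and 428.1 CPM after 24 h (adjusted p = 1.73e-08 and 8.63e-06). In CT1258 the luminal list summed to between 7.262 and 15.48 CPM in the controls and between 4.544 and 7.46 CPM after PDA-66. KLK2 was at 3.333 to 10.81 CPM in these controls and at 0 in all PDA-66 samples (adjusted p = 0.000313 and 0.000417), TMPRSS2 was at 0 in every group and EPCAM was at 0 in the controls. The prostate epithelial label of this line could thus not be read clearly from these transcripts, and the part of these marker changes in the E2F values was not tested.

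In the human genome, the promoters of several members hold E2F-type motifs of their own. RefSeq promoters of 300 bases (build GRCh38.p14, 250 bases before the start and 50 from it) were given for 8 of the 10 members, with a pair of starts for E2F3. They were searched on both strands for the motif TTTCCCG, the motif TTTCGCG, the motif TTTGCCG and the motif TTTGGCG, where matches may overlap. Of these 9 promoters, 5 held a match, those of E2F1, E2F2, E2F6 and RBL1 and the first of E2F3, compared with 8.67% of all 35116 promoters. Each of the 5 held at least 2 matches, compared with 0.681% of all promoters. The second E2F3 promoter and those of E2F4 and E2F7 had none of these letters in the window. Neither had the RB1 window, but it belongs to an annotated start 172699 bases inside the gene, so the promoter at the 5′ end of RB1 was not searched. The 3 activator promoters and that of RBL1 are printed for their matches, and that of E2F4, a repressor, for the lack of one. The promoter of E2F6, also a repressor, held 2 matches and is not printed. The promoters of E2F5 and E2F8 were not analysed here. E2F1 is at chr20:33686336-33686635 (minus strand), E2F2 at chr1:23531184-23531483 (minus), E2F3 at chr6:20401629-20401928 (plus), RBL1 at chr20:37095948-37096247 (minus) and E2F4 at chr16:67191905-67192204 (plus). Each runs 5′ to 3′ on the strand of the gene, and capitals mark the matches.
E2F1: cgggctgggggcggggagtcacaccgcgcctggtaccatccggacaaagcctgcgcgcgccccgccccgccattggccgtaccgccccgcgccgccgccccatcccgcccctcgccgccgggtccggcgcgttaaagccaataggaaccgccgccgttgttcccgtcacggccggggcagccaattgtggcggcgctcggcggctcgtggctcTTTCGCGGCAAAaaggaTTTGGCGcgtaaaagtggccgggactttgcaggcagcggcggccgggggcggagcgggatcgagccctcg
E2F2: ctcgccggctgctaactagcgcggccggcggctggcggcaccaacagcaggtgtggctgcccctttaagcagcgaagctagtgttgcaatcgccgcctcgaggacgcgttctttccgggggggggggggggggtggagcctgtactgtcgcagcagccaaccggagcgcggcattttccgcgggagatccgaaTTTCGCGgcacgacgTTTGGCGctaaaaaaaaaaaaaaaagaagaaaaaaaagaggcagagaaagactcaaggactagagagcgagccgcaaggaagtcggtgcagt
E2F3: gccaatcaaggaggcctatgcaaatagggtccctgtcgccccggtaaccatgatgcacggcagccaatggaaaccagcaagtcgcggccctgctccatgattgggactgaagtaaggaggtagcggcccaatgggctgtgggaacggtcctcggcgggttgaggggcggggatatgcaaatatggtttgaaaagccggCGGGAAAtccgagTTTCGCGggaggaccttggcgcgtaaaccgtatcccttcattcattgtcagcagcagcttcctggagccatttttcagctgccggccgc
RBL1: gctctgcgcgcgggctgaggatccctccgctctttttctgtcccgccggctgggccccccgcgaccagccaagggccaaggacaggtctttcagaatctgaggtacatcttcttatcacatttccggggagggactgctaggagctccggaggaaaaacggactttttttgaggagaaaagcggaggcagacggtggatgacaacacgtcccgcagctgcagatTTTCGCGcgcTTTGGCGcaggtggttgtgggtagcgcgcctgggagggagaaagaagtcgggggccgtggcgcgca
E2F4: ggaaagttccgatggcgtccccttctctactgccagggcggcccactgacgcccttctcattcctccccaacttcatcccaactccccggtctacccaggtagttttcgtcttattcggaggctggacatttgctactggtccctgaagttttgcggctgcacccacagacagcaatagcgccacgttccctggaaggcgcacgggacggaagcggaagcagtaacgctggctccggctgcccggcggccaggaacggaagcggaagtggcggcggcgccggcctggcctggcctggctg
In the printed promoters, the matches lay close to the start of the gene. In E2F1 they began 37, 32 and 20 bases before it, and the first and second of these overlap on opposite strands. In RBL1 they began 26 and 16 bases before the start, in E2F2 57 and 42, and in E2F3 52 and 39. Those of E2F6, not printed, lay further away and began 183 and 78 bases before the start. A match describes the letters only.

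In the untreated human cells, E2F1 and E2F4 were the most abundant members per length. For this, counts scaled to library size (CPM, with TMM factors) were divided by the length of all annotated exons in kilobases (GENCODE on GRCh37). In PC-3 DMSO, E2F1 reached 20.4 and 22.4 CPM per kb in the single samples, E2F4 12.8 and 12.9, E2F7 11 and 11.1 and RB1 7.74 and 10.6. E2F3, RBL1, E2F8 and E2F6 followed with means between 5.87 and 4.05, then E2F2 with 2.86 and E2F5 with 1.86 CPM per kb. Neighbours in this order had separate ranges, except RBL1, E2F8 and E2F6, which overlapped in turn.

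In LNCaP DMSO, E2F4 led with 16.2 ± 0.99 CPM per kb (SD, n = 3), but its range overlapped that of E2F1 at 14.4 ± 3.8. E2F3 reached 7.56 ± 1.4, and E2F2 was the lowest with 1.64 ± 0.6. All neighbours from E2F6 down to E2F2 overlapped. The largest contrast between the untreated human lines was E2F7, with 11.1 CPM per kb in PC-3 and 3.06 ± 2.1 in LNCaP.

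Compared directly in 1 fit of both human lines, E2F7 was the only member that differed between PC-3 DMSO and LNCaP DMSO at an adjusted p under 0.001, a share of 1 in 10 where 40.8% of the 15018 genes tested were called. Its mean was 70.75 CPM in PC-3 and 19.17 CPM in LNCaP, a log2 difference of 1.89 ± 0.36 (SE, adjusted p = 0.000206). The LNCaP controls were uneven for this gene, with 13.1, 34.5 and 10.1 CPM, but all lay below the PC-3 controls at 70 and 69.2 CPM, as groups did without overlap for 75.5% of all genes. Of the fits that left out 1 sample, 13 of 17 kept the call, and the call was lost without either PC-3 control (adjusted p = 0.00215 and 0.00204) and without LNCaP DMSO replicate 1 (0.00176) or 3 (0.00101). RB1 was measured at 59.91 CPM in PC-3 and 32.03 CPM in LNCaP, with an adjusted p of 0.0102. E2F2 and E2F8 also had higher means in PC-3, with adjusted p of 0.00712 and 0.0195. Cell line, culture and library preparation cannot be told apart here.

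**Figure D1:**
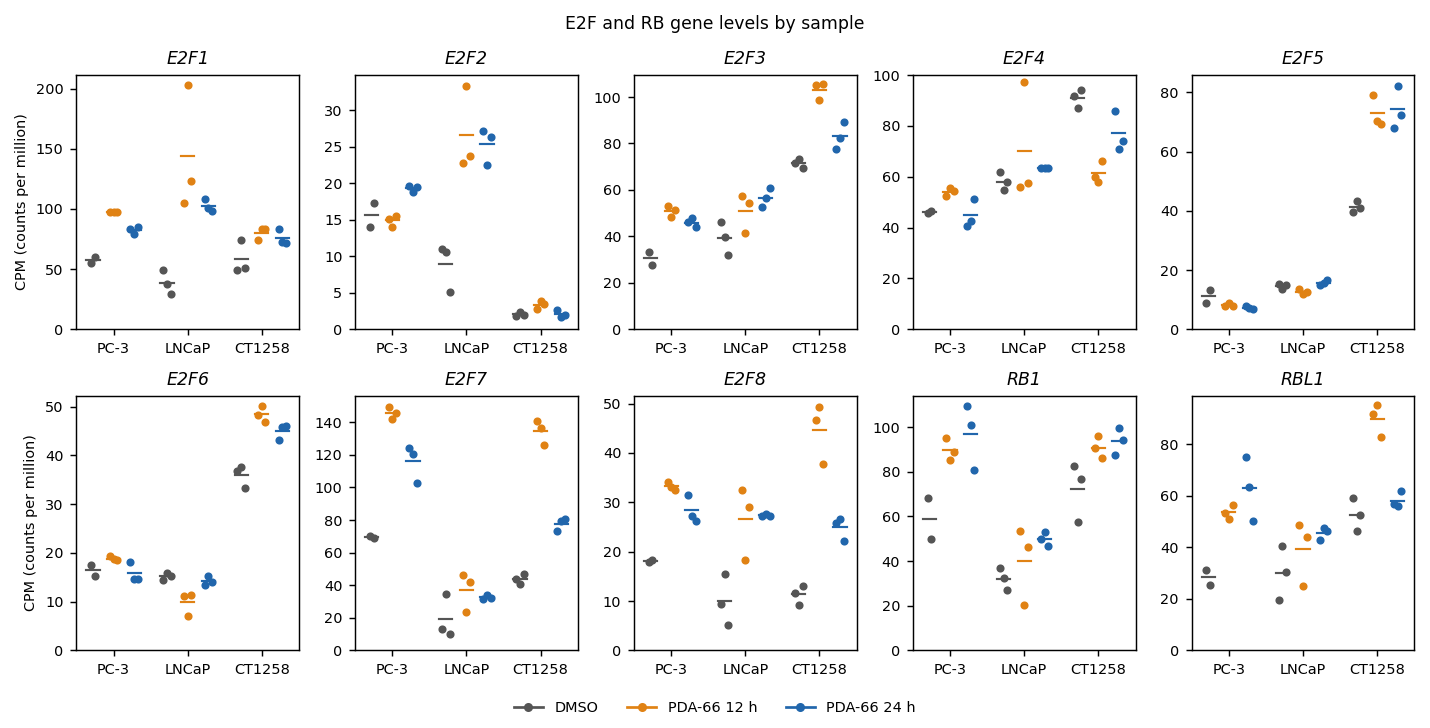
Level of each member in every sample, in CPM scaled by TMM within each cell line, on linear axes from 0. Points are samples, bars are group means, and colours mark the vehicle and both incubation times. E2F7 and E2F8 lie above the controls in all PDA-66 samples of PC-3 and CT1258, while E2F4 lies below them in CT1258.

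In PC-3, 2 of the 3 activators, E2F1 and E2F3, and both atypical E2Fs were higher after PDA-66 incubation. After 12 h, 5 of the 10 members were higher than DMSO at an adjusted p under 0.001 and 0 were lower, where 13% of the 13777 genes tested were called higher, 14.6% lower and 27.6% in either direction. They were E2F1, E2F3, E2F7, E2F8 and RBL1, by 1.67-fold to 2.09-fold. The median log2 fold change of the members was 0.675, compared with -0.005 over all genes tested. None of E2F4, E2F5 and E2F6 passed the test.

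Of the activators in PC-3, E2F1 was measured at 54.8 and 60.2 CPM in the controls, at 97.7, 97.5 and 97.2 CPM after 12 h and at 83.1, 79.2 and 84.6 CPM after 24 h. All PDA-66 samples lay above both controls. Such a separation of groups was found for 8 of the 10 members at each time, and for 70.9% of all genes after 12 h and 61.9% after 24 h. After 12 h the log2 fold change was 0.76 ± 0.092 (SE, adjusted p = 1.78e-05), and after 24 h it was 0.52 ± 0.092 (adjusted p = 0.000556). E2F3 rose from 33.1 and 27.8 CPM to 53.1, 48.3 and 51.5 CPM after 12 h, by 0.74 on the log2 scale (adjusted p = 8.14e-05), and was at 46, 47.8 and 44.1 CPM after 24 h. Its groups did not overlap either. E2F2, the third activator, was at 14 and 17.3 CPM in the controls, at 15.2, 14 and 15.6 CPM after 12 h and at 19.7, 18.8 and 19.6 CPM after 24 h. Its log2 fold change was -0.07 (95% interval -0.34 to 0.208) after 12 h and 0.31 (0.034 to 0.576, adjusted p = 0.0588) after 24 h, so that E2F2 did not pass the test in PC-3.

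The atypical repressors showed the largest change among the E2Fs of PC-3. E2F7 was at 70 and 69.2 CPM in the controls and at 149, 142 and 146 CPM after 12 h, a 2.09-fold difference (log2 fold change 1.07 ± 0.1, adjusted p = 2.45e-06). After 24 h it was at 124, 121 and 103 CPM, still above both controls (0.74 ± 0.1, adjusted p = 7.89e-05). E2F8, its closest relative, went from 17.8 and 18.2 CPM to 34.1, 33 and 32.6 CPM after 12 h (0.88 ± 0.11, adjusted p = 3.02e-05) and was at 31.5, 27.3 and 26.2 CPM after 24 h (0.65 ± 0.12, adjusted p = 0.000492). For both genes, the groups were separated by more than their own range at 12 h.

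None of the canonical repressors of PC-3 passed the test at either time. E2F4, the most abundant of them, was at 45.9 and 46.5 CPM in the controls, at 52.3, 55.7 and 54.4 CPM after 12 h and at 40.7, 42.7 and 51.1 CPM after 24 h, with log2 fold changes of 0.23 (95% interval -0.011 to 0.469) and -0.04 (-0.286 to 0.196). E2F6 had log2 fold changes of 0.19 and -0.06. E2F5 was at 8.85 and 13.4 CPM in the controls and between 6.97 and 9.01 CPM in all PDA-66 samples. One 12 h sample lay above the lower control. The log2 fold change was -0.43 at 12 h (adjusted p = 0.0467) and -0.6 at 24 h (adjusted p = 0.0113). The 24 h value rested on the higher of the controls, as it was -0.25 (adjusted p = 0.219) without DMSO replicate 3. Exons of E2F5 overlap those of RBIS on the opposite strand, and reads of the pair may not be told apart, since use of strand in counting is not stated. The same limit holds for E2F8 and RBL1, whose exons overlap those of long noncoding RNA genes on the opposite strand.

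Of the pocket proteins, RBL1 rose in PC-3, while RB1 missed the threshold. RBL1 was at 31.1 and 25.6 CPM in the controls, at 53.2, 51.2 and 56.3 CPM after 12 h and at 75.2, 63.4 and 50 CPM after 24 h, with no overlap between the groups. It rose by 0.92 ± 0.15 (adjusted p = 0.000242, but 0.00314 without DMSO replicate 3 and 0.00138 without 12 h replicate 3) and by 1.15 ± 0.15 on the log2 scale (adjusted p = 6.2e-05), which made it the member with the largest 24 h change. RB1 was at 68 and 49.8 CPM in the controls, at 94.9, 85.4 and 88.8 CPM after 12 h and at 110, 101 and 80.8 CPM after 24 h. Its log2 fold changes of 0.61 ± 0.15 and 0.72 ± 0.15 missed the threshold of 0.001, with adjusted p of 0.00326 and 0.00135. The controls differed for this gene more than for E2F7 or E2F8, whereas the PDA-66 samples lay above the higher control in every case.

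After 24 h, E2F1, E2F3, E2F7, E2F8 and RBL1 passed the test in PC-3, where 8.88% of all genes tested were called higher, 10.5% lower and 19.3% in either direction. The calls of E2F1, E2F3 and E2F8 at 24 h were near the threshold: each was lost in 7 of 8 fits with 1 sample omitted, with adjusted p up to 0.00243, 0.00462 and 0.00232. E2F1 was kept without DMSO replicate 3, E2F3 without DMSO replicate 2 and E2F8 without 24 h replicate 3. With only the DMSO and 24 h samples in the fit, 2 members and 12.2% of all genes were called, and E2F7 and RBL1 passed in each of the 8 fits without 1 sample.

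**Figure D2:**
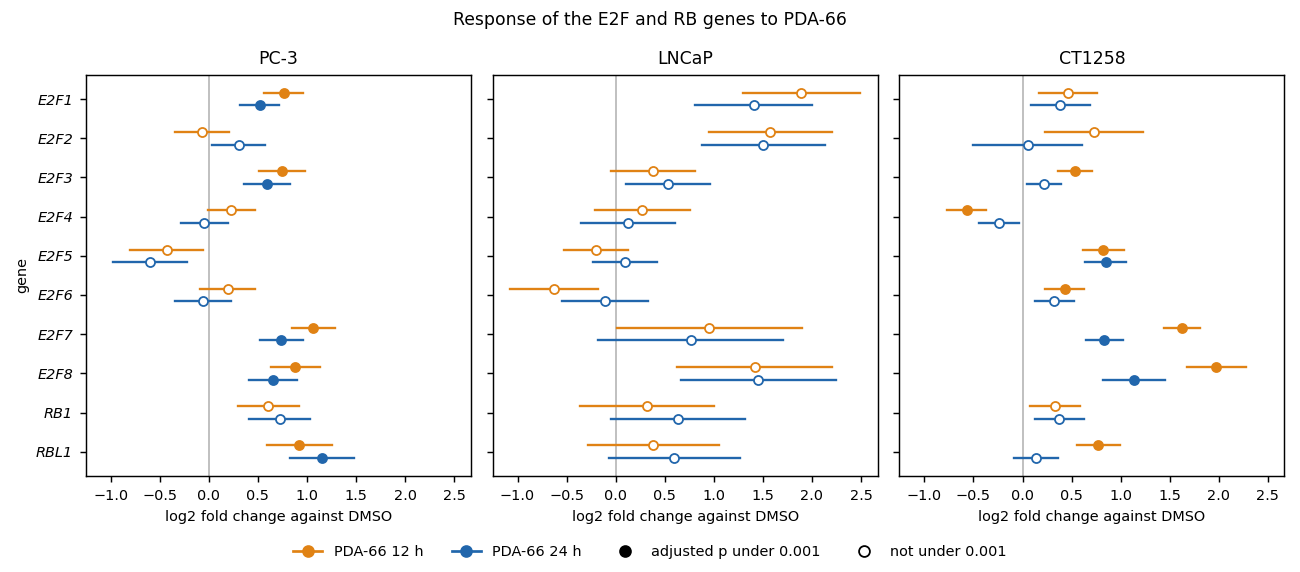
Log2 fold change against DMSO of each member in PC-3, LNCaP and CT1258 after 12 h and 24 h, with 95% intervals as lines. Filled symbols have an adjusted p under 0.001. In LNCaP, where no point is filled, E2F1, E2F2 and E2F8 have the largest values, and in CT1258 E2F8 does at both times, followed by E2F7 after 12 h and by E2F5 and E2F7 (0.85 and 0.83) after 24 h.

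In LNCaP, the activators E2F1 and E2F2 and the atypical E2F8 had the largest changes, but the samples varied more. No member passed an adjusted p of 0.001 after 12 h or 24 h with the edgeR quasi-likelihood test, where 0.0076% of the 13156 genes tested were called after 12 h and 0% after 24 h. At an unadjusted p under 0.05, 5 members remained after 12 h, where 30% of all genes did, and 4 after 24 h, where 19.8% did. At an adjusted p under 0.05, 3 members were higher after 12 h, where 4.52% of all genes were higher, 4.62% lower and 9.14% either. After 24 h, 2 members were higher, where 1.35% of all genes were higher, 1.57% lower and 2.92% either. Groups did not overlap for 5 members after 12 h (28.1% of all genes) and 7 after 24 h (44.7%). With the DESeq2 Wald test, 2 members were called at 0.001 at each time, where 4.71% of all genes were called after 12 h and 2.17% after 24 h. With edgeR's likelihood ratio test, 2 members were likewise called at each time (4.34% and 1.96% of all genes). With limma voom and sample quality weights 4 were called at each time (13.9% and 11.2% of all genes).

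E2F1 was at 49.5, 37.5 and 29.1 CPM in the LNCaP controls, at 105, 203 and 123 CPM after 12 h and at 108, 101 and 98.3 CPM after 24 h. Every PDA-66 sample lay above every control. The 12 h difference was 3.71-fold (log2 fold change 1.89 ± 0.27, adjusted p = 0.00784), and the 24 h log2 fold change was 1.4 ± 0.27 (adjusted p = 0.0342). The value of 203 CPM came from the library that stood apart. Without it, the 12 h value was 1.56 with an adjusted p of 0.000552, and the 24 h value was 1.41 with 0.00076. In that fit, 261 of 13335 genes passed at 12 h, compared with 1 gene in the fit with all samples.

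E2F2 followed the same order, with 11, 10.6 and 5.17 CPM in the controls, 22.8, 33.3 and 23.8 CPM after 12 h and 27.2, 22.6 and 26.4 CPM after 24 h. The PDA-66 samples were again all above the controls, by 1.58 ± 0.28 (adjusted p = 0.0135) and 1.5 ± 0.28 (adjusted p = 0.0325) on the log2 scale. The third activator, E2F3, had 46.1, 39.7 and 32 CPM in the controls, 57.4, 41.4 and 54.4 CPM after 12 h and 52.8, 56.5 and 60.8 CPM after 24 h. Its groups overlapped at 12 h, and neither time passed at 0.05 (adjusted p = 0.209 and 0.157).

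E2F8 was at 9.38, 15.6 and 5.09 CPM in the LNCaP controls, at 32.6, 18.3 and 29.1 CPM after 12 h and at 27.2, 27.6 and 27.3 CPM after 24 h. All PDA-66 samples were higher than all controls, with log2 fold changes of 1.42 ± 0.35 (adjusted p = 0.04) and 1.45 ± 0.35 (adjusted p = 0.0627). E2F7 was at 13.1, 34.5 and 10.1 CPM in the controls and at 46.1, 23.6 and 42 CPM after 12 h. The control of 34.5 CPM lay above the 12 h sample of 23.6 CPM and above all 24 h samples, and E2F7 did not pass at 0.05 (log2 fold change 0.96, 95% interval 0.017 to 1.895).

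The canonical repressors and the pocket proteins of LNCaP did not pass at either threshold. E2F4 was between 54.7 and 61.8 CPM in the controls and at 55.8, 97.4 and 57.5 CPM after 12 h, so that its 12 h mean was carried by replicate 2. Without this library its log2 fold change was -0.03 in place of 0.27. E2F6 was at 14.5, 16 and 15.4 CPM in the controls and at 11.2, 7.08 and 11.3 CPM after 12 h, below all controls (log2 fold change -0.63, adjusted p = 0.0764; -0.44 and 0.0284 without replicate 2). RB1 was at 36.7, 32.4 and 27.2 CPM in the controls, at 53.5, 20.4 and 46.3 CPM after 12 h and at 49.8, 52.9 and 46.6 CPM after 24 h. Replicate 2 of the 12 h group was the lowest RB1 value of all LNCaP samples. Without it, the RB1 log2 fold change was 0.64 at both times (adjusted p = 0.00746 for 12 h and 0.00596 for 24 h), compared with 0.32 and 0.63 with it. RBL1 likewise was lowest at 12 h in this library, with 25.1 CPM beside 48.8 and 44 CPM.

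The library that stood apart thus held the highest E2F1, E2F2 and E2F4 of its group and the lowest E2F3, E2F5, E2F6, E2F7, E2F8, RB1 and RBL1, and its TMM factor was 0.868 where those of the other LNCaP libraries lay between 1.004 and 1.025. The part of this library in the spread of LNCaP is given by the fits without it, and its origin was not tested.

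In CT1258, E2F7 and E2F8 rose most after 12 h, when E2F4 fell, and E2F8, E2F5 and E2F7 were the members that were higher after 24 h. After 12 h, 6 members were higher than DMSO and 1 was lower at an adjusted p under 0.001, where 22.2% of the 9886 genes tested were called higher, 22.1% lower and 44.3% in either direction. After 24 h, 3 members were higher and 0 lower, where 16.6% of all genes were called higher, 17.2% lower and 33.8% in either direction. The samples did not overlap the controls for 9 members after 12 h (72.8% of all genes) and 7 after 24 h (66.3%). The median log2 fold change of the members was 0.629 after 12 h and 0.35 after 24 h, compared with -0.002 and -0.007 over all genes tested.

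E2F8 was at 11.7, 9.25 and 13.1 CPM in the CT1258 controls, at 46.8, 49.4 and 37.7 CPM after 12 h and at 25.9, 26.6 and 22.2 CPM after 24 h. The difference was 3.93-fold after 12 h (log2 fold change 1.98 ± 0.14, adjusted p = 6.27e-08) and 2.2-fold after 24 h (1.14 ± 0.15, adjusted p = 1.85e-05). E2F7 was at 43.5, 40.5 and 46.9 CPM in the controls, at 141, 137 and 126 CPM after 12 h and at 73.3, 79.6 and 80.4 CPM after 24 h, a 3.08-fold difference after 12 h (1.62 ± 0.086, adjusted p = 5.47e-09). For both genes, the 3 groups were fully separated, with the 12 h samples highest.

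E2F5, which pairs with p130 and p107 in resting cells, was higher in CT1258 at both times. It was at 39.5, 43.4 and 40.9 CPM in the controls, at 79.1, 70.4 and 69.2 CPM after 12 h and at 68, 82.2 and 72.4 CPM after 24 h. The PDA-66 groups overlapped each other and lay above the controls, by 0.82 ± 0.097 (adjusted p = 5.27e-06) and 0.85 ± 0.097 (adjusted p = 6.91e-06) on the log2 scale. E2F4 moved the other way after 12 h, from 91.9, 86.9 and 94.2 CPM to 60.1, 57.8 and 66.3 CPM, and fell by 0.57 on the log2 scale (SE 0.094, adjusted p = 0.000103, but 0.00107 without 12 h replicate 1 and 0.00133 without 12 h replicate 2). At 24 h it was at 86, 71.1 and 74.2 CPM, with a log2 fold change of -0.24 (adjusted p = 0.0378). E2F6 was higher after 12 h by 0.43 ± 0.091 (adjusted p = 0.000813), a call that was kept in the fit without DMSO replicate 2 and lost in the other 8 fits with 1 sample omitted, with adjusted p up to 0.00639, and with the control counts thinned to the depth of the PDA-66 samples (adjusted p = 0.00102).

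Of the 3 activators in CT1258, E2F3 passed after 12 h and none after 24 h. It was at 71.7, 73.1 and 69.5 CPM in the controls and at 105, 98.9 and 106 CPM after 12 h (0.53 ± 0.081, adjusted p = 4.94e-05). E2F1 was at 49.4, 74.1 and 50.8 CPM in the controls, at 73.8, 83.7 and 83 CPM after 12 h and at 83.6, 72.5 and 71.6 CPM after 24 h. DMSO replicate 2, at 74.1 CPM, reached into the PDA-66 range. Without this sample E2F1 passed at both times, with log2 fold changes of 0.67 (adjusted p = 1.53e-07) and 0.59 (adjusted p = 1.41e-06), compared with 0.46 (0.00841) and 0.39 (0.0263) with it. E2F2 was a rare transcript in this line, with 13 to 47 counts per sample, and did not pass at either time.

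RBL1 was at 59.1, 46.3 and 52.7 CPM in the CT1258 controls and at 91.6, 95.1 and 82.9 CPM after 12 h, where it was higher by 0.77 ± 0.1 (adjusted p = 1.44e-05). After 24 h it was at 56.8, 55.9 and 61.7 CPM and overlapped the controls. RB1 was at 82.5, 57.6 and 76.7 CPM in the controls and between 86.1 and 99.5 CPM in all PDA-66 samples. All PDA-66 samples were above the highest control, but with log2 fold changes of 0.33 and 0.38 (adjusted p = 0.0222, and 0.0129 for 24 h) RB1 did not pass. The lowest RB1 control was again DMSO replicate 2. Without this replicate, 8 members were called after 12 h and 5 after 24 h, in fits in which 5567 and 4629 of 9934 genes were called.

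The contrast of 24 h with 12 h of PDA-66 holds no control group, but the controls were in the fit and shared its estimate of the spread. Between 12 h and 24 h, E2F7 fell in CT1258 by 0.79 on the log2 scale (SE 0.088, adjusted p = 1e-04). It was the only member called, where 2.13% of all genes were called, with 1.28% lower and 0.85% higher. E2F8 and RBL1 had log2 changes of -0.84 and -0.63 and just missed the threshold, with adjusted p of 0.00151 and 0.00137. With the control counts thinned (2.9% of all genes called), with no filter (2.69%), or with only these 2 groups in the fit (12%), 3 members were called. The call was lost and 0 members were left without any 1 of 5 samples, namely 12 h replicate 1 or 2 or any 24 h replicate. In these 5 fits, 0.201% to 0.704% of all genes were called. Without DMSO replicate 2, 4 members and 13.6% of all genes were called. In PC-3, 0 of the 10 members passed with edgeR, where 1.41% of all genes did (0.777% higher, 0.631% lower), and 5 had an unadjusted p under 0.05, as 24.5% of all genes did. With limma voom and quality weights, 4 members and 16.8% of all genes passed in PC-3. With DESeq2 or the likelihood ratio test 0 members passed, where 3.73% and 5.05% of all genes did. E2F7 had the smallest adjusted p there with edgeR, 0.0342, at a log2 change of -0.33. In LNCaP, 0 members and 0% of all genes passed in this comparison, also at an adjusted p under 0.05, and the members' log2 changes lay between -0.49 and 0.52. At an unadjusted p under 0.05, 1 LNCaP member was left, E2F6, where 6.36% of all genes were. With DESeq2, the likelihood ratio test or voom, 0 members were called, where 0.0076%, 0.0304% and 1.44% of all genes were.

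The response was then compared between cell lines with an interaction over the 11736 genes shared by name and passing the filter. At an adjusted p under 0.05, 7 of the 10 members differed in at least 1 of 6 contrasts, where 59.5% of all genes did. With 1 sample omitted, between 5 and 8 members differed. The shares of all genes in these fits are not given here. In the fit with all samples, E2F3, E2F7 and RB1 did not pass in any contrast. The interaction fit shared 1 estimate of the spread per gene over all 3 lines, so LNCaP entered the SE of every contrast. For E2F7 after 12 h, the response differed by -0.7 ± 0.38 (LNCaP minus CT1258) and by -0.57 ± 0.4 (PC-3 minus CT1258, adjusted p = 0.301). In the fits of single lines, the SE of its 12 h log2 fold change was 0.1 in PC-3, 0.086 in CT1258 and 0.42 in LNCaP. A missing call is thus no sign of an equal response.

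For E2F1 and E2F2, the larger response of LNCaP passed the test in 6 of 8 contrasts with the other lines, 3 for each gene. After 12 h E2F1 differed by -1.09 ± 0.28 (PC-3 minus LNCaP, adjusted p = 0.00879) and by 1.37 ± 0.27 (LNCaP minus CT1258, adjusted p = 0.000399). After 24 h its difference of -0.87 between PC-3 and LNCaP did not pass (adjusted p = 0.0538), while that of 0.99 between LNCaP and CT1258 did (adjusted p = 0.0111). E2F2 differed by -1.61 ± 0.3 (PC-3 minus LNCaP, adjusted p = 0.000559) after 12 h and by -1.18 ± 0.3 (adjusted p = 0.0121) after 24 h. Between LNCaP and CT1258 it differed by 0.79 after 12 h, which did not pass (adjusted p = 0.0616), and by 1.42 after 24 h (adjusted p = 0.00566). In the contrast of PC-3 with LNCaP after 12 h, 3 members were called, where 19.6% of all genes were, and after 24 h 2 (9.7%). The 24 h calls depended on PC-3 DMSO replicate 3. Without it a single PC-3 control is left, so no count of members is given for that fit.

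E2F5 separated the canine line from both human lines. Its response differed by -1.27 ± 0.21 (PC-3 minus CT1258, adjusted p = 5.64e-05) after 12 h and by -1.46 ± 0.21 (adjusted p = 2.4e-05) after 24 h, and in LNCaP minus CT1258 by -1.07 and -0.78 (adjusted p = 0.000169 and 0.00545). The E2F4 response of CT1258 after 12 h was lower than that of PC-3 by 0.78 ± 0.22 (adjusted p = 0.00959) and lower than that of LNCaP by 0.78 ± 0.21 (adjusted p = 0.00454). The LNCaP value included the library that stood apart. Without this library, the E2F4 log2 fold change of LNCaP was -0.03 in place of 0.27. Of the atypical E2Fs, E2F8 differed after 12 h between PC-3 and CT1258 by -1.11 ± 0.36 (adjusted p = 0.0214). In PC-3 against CT1258, 3 members were called after 12 h (30.1% of all genes) and 2 after 24 h (21.2%), and in LNCaP against CT1258 4 after 12 h (40.2%) and 3 after 24 h (21.1%). Species, read mapping and gene model differ between these lines as well and cannot be told apart from the cell line.

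The activators were then set against the repressors as a difference of mean log2 CPM, computed within each sample. Since the genes differ in length, only changes of this value between groups of a cell line are read. It is a description, with no test. Against the canonical repressors E2F4 to E2F6, the difference was higher in the PDA-66 samples of both human lines and in the 12 h samples of CT1258. In PC-3 the difference was 0.568 ± 0.053 (SD, n = 2) in the controls, 1.04 ± 0.091 (n = 3) after 12 h and 1.269 ± 0.049 after 24 h, and no groups overlapped. In LNCaP it went from -0.019 ± 0.41 to 1.477 ± 0.18 and 1.123 ± 0.087, with every PDA-66 sample above every control. In CT1258 it was -1.306 ± 0.16 in the controls, -0.968 ± 0.12 after 12 h and -1.398 ± 0.14 after 24 h. All 12 h samples (-1.108 to -0.876) lay above all controls (-1.427 to -1.131), while the 24 h samples overlapped the controls. Of all single genes, 72.8% were separated from the controls in CT1258 after 12 h. After 12 h and 24 h the shares were 70.9% and 61.9% in PC-3 and 28.1% and 44.7% in LNCaP.

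Against the atypical repressors E2F7 and E2F8, the difference was lower in the PDA-66 samples of PC-3 and CT1258. In PC-3 the difference was -0.236 ± 0.039 in the controls, -0.726 ± 0.036 after 12 h and -0.451 ± 0.13 after 24 h. In CT1258 it was -0.103 ± 0.34, -1.331 ± 0.2 and -0.869 ± 0.16, with DMSO replicate 2 at 0.287 and the other controls at -0.254 and -0.341. All PDA-66 samples of both lines lay below all of their controls. In these comparisons, 61.9% to 72.8% of all single genes were separated from the controls as well. In LNCaP the means were 0.909 ± 0.69, 0.898 ± 0.66 and 0.818 ± 0.086, and the groups overlapped. Against all 5 repressors, PC-3 changed by 0.088 after 12 h and 0.335 after 24 h, LNCaP by 0.894 and 0.649, and CT1258 by -0.288 and -0.361. The CT1258 changes rested in part on DMSO replicate 2, at -0.564 where the other controls were at -0.958 and -0.953. The sign of the change depended on which repressors were counted: in PC-3 it turned to -0.489 and -0.214 with E2F7 and E2F8 alone.

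**Figure D3:**
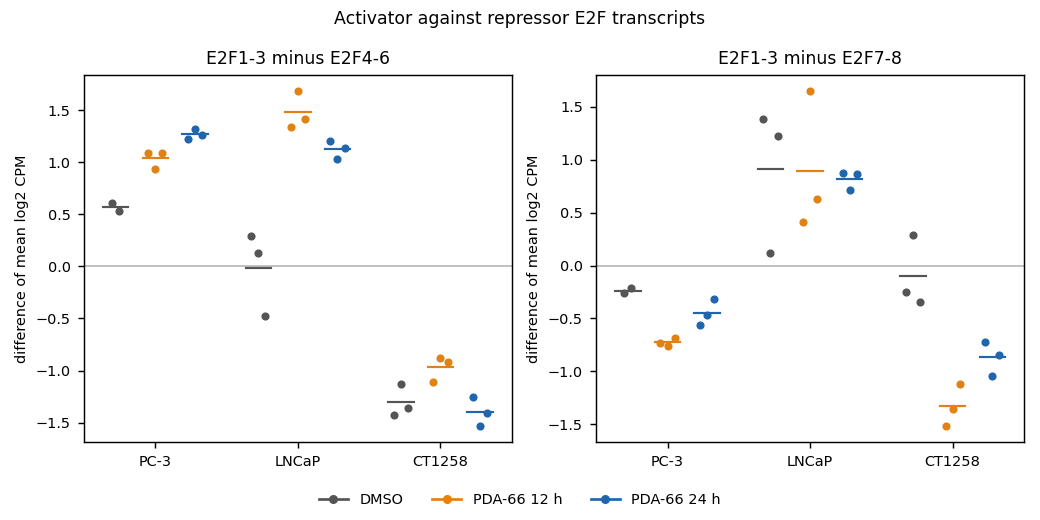
Mean log2 CPM of E2F1 to E2F3 minus that of E2F4 to E2F6 (left) or of E2F7 and E2F8 (right), by sample, with group means as bars. On the left the PDA-66 samples of PC-3 and LNCaP and the 12 h samples of CT1258 lie above their controls. On the right the PDA-66 samples of PC-3 and CT1258 lie below theirs.

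As a share of the counts on all 8 E2F genes, the activators held 38.9% and 39.3% in the PC-3 controls and between 38.2% and 42.3% in the PDA-66 samples. In LNCaP the share was 48.3%, 39.5% and 39.1% in the controls and between 53.6% and 63.7% in all PDA-66 samples, where the highest value came from the library that stood apart. In CT1258 it was 35.5%, 40.7% and 34.9% in the controls, highest in DMSO replicate 2, and between 32.6% and 35.7% after PDA-66. For the first PC-3 control, the 95% exact binomial interval ran from 37.4% to 40.5%, which covers counting error only.

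The DP partners did not follow a single direction. TFDP1, which encodes the main partner DP1, was higher in PC-3, with 131.5 CPM in the controls, 202.9 CPM after 12 h and 214.2 CPM after 24 h (adjusted p = 5.99e-05 and 3.67e-05). In LNCaP its values were 0.52 and 0.36 (adjusted p = 0.0578 and 0.22), and for CT1258 TFDP1 was not analysed here. TFDP2 had log2 fold changes of -0.04 and -0.18 in PC-3 and -0.12 and -0.28 in LNCaP. In CT1258 it fell by 0.84 on the log2 scale (adjusted p = 0.000153) after 12 h and was at -0.51 (adjusted p = 0.00649) after 24 h. The list of 10 DP and DREAM genes joins DP partners and subunits of the DREAM complex, which silences cell cycle genes in resting cells, with MYBL2 and FOXM1, which join the MuvB core later in the cycle to activate mitotic genes. Of these 10 genes, 4 were higher in PC-3 at each time, where 13% and 8.88% of all genes were. After 12 h, 1 was lower (14.6% of all genes). MYBL2 (1.45 after 12 h and 1.57 after 24 h on the log2 scale) and FOXM1 (1.15 and 1.2) had the largest changes, and the others that rose were TFDP1 and LIN54, a DNA-binding subunit of the core. The gene that fell was RBL2 (p130), by 0.62 on the log2 scale (adjusted p = 0.000166), named after its value was seen. In CT1258, 6 of 9 were higher at each time, led by RBBP4 with 2.2 and 1.9, while 2 were lower after 12 h and 1 after 24 h. Of all genes, 22.2% were higher and 22.1% lower after 12 h, and 16.6% and 17.2% after 24 h. LIN37 fell by 1.25 and 1.05 on the log2 scale (adjusted p = 5.79e-05 and 0.000286), and the other gene that fell after 12 h was TFDP2.

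Of the 9 tested cyclins and kinases that phosphorylate RB, 5 were higher in PC-3 after 12 h and 3 after 24 h, and 0 were lower. Of all genes, 13% were called higher after 12 h and 8.88% after 24 h. CCNE1, cyclin E1, had the largest value after 12 h, with 1.953 CPM in the controls and 10.38 CPM, and fell to 3.935 CPM by 24 h (24 h against 12 h, adjusted p = 0.00039). CCNE2 was at 20.57 and 66.58 CPM. In CT1258, 5 of 10 were higher and 3 lower after 12 h, and 3 were higher and 3 lower after 24 h. The shares of all CT1258 genes were 22.2% higher and 22.1% lower after 12 h, and 16.6% and 17.2% after 24 h. CCNA2, cyclin A2, had the largest 24 h change there, with 51.99 CPM in the controls and 219.2 CPM. In LNCaP, 5 of 9 were higher after 12 h at an adjusted p under 0.05, CDK1 with 114.9 and 405.2 CPM among them. Of all LNCaP genes tested, 4.52% were higher at that threshold. Inhibitors of these kinases were measured for 7 genes in PC-3, where 1 was higher and 4 were lower at each time. Of all PC-3 genes tested, 14.6% were lower after 12 h and 10.5% after 24 h. CDKN2B (p15) was at 280.5 CPM in the controls, 45.72 CPM after 12 h and 65.79 CPM after 24 h, while CDKN1A (p21) was at 44.09, 96.27 and 75.26 CPM. In LNCaP, CDKN2C and CDKN2D were higher after 12 h at 0.05, by 2.42 (adjusted p = 0.00798) and 1.84 (adjusted p = 0.0134).

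E2F activity is also set by protein turnover, which SKP2 and cyclin F (CCNF) take part in. SKP2 rose in PC-3 from 22.58 to 70.93 CPM after 12 h (log2 fold change 1.65, adjusted p = 1.89e-06), and CCNF from 18.57 to 47.98 CPM. These were the 2 genes called among 5 in PC-3 at each time, where 27.6% and 19.3% of all genes were called. In CT1258, 3 of 4 were higher and FZR1, an activator of the anaphase-promoting complex, fell by 1.12 on the log2 scale after 12 h. Of all genes, 22.2% were higher and 22.1% lower there. The list of 10 partners of E2F6 showed 2 higher and 0 lower genes in PC-3 after 12 h, with a median log2 fold change of 0.114. Over all genes, 13% were higher and 14.6% lower, with a median of -0.005. Of the 10 cell death genes linked to E2F1, 8 were tested in PC-3, where 2 were higher and 1 lower after 12 h. After 24 h, 0 were higher and 1 lower with the quasi-likelihood test. At an adjusted p under 0.05, 2 were higher after 24 h, where 49.9% of all genes were called in either direction. At 0.001, 13% of all genes were higher and 14.6% lower after 12 h, and 8.88% and 10.5% after 24 h. The median log2 fold change of the list was -0.111 after 12 h and -0.007 after 24 h. APAF1, a core part of the apoptosome, was among those higher after 12 h, with means of 19.53 CPM in the controls and 39.51 CPM after 12 h. BBC3 (PUMA), which promotes apoptosis, fell from 7.396 to 1.888 CPM after 12 h and to 2.4 CPM after 24 h (adjusted p = 1.6e-05 and 9.43e-05). In CT1258, 0 of 4 were higher and CASP9 was lower at both times, where 22.1% and 17.2% of all genes were lower.

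Many genes that E2F is known to switch on at the G1/S transition were higher in PC-3 and CT1258, and in LNCaP at the weaker threshold of 0.05. Of 38 such genes in PC-3, 28 were called higher after 12 h (13% of all genes) and 27 after 24 h (8.88%). Of the 38 genes, 0 were lower. Their median log2 fold change was 0.942 and 0.937, compared with -0.005 and -0.01 over all genes. MCM10, a replication factor, went from 13.12 to 39.51 and 35.96 CPM, and RRM2, a subunit of ribonucleotide reductase, from 180 to 530.9 CPM by 24 h. In LNCaP, 0 passed at 0.001. At 0.05, 32 of 38 were higher after 12 h (4.52% of all genes) and 21 after 24 h (1.35%). All 38 had positive values at both times. GINS1 was at 43.54 CPM in the controls and 196.6 CPM after 12 h. In CT1258, 26 of 35 were higher after 12 h (22.2% of all genes). After 24 h, 18 were higher and 2 lower (16.6% and 17.2% of all genes). BRCA1 was at 38.71, 135.9 and 92.32 CPM in this line. Between 12 h and 24 h, 5 of these genes fell in CT1258 (1.28% of all genes), CCNE1, DTL and MCM3 by the most.

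Genes of G2 phase and mitosis were also higher in many cases. In PC-3, 6 of 24 were called higher after 12 h (13% of all genes) and 4 after 24 h (8.88%). In CT1258, 20 of 22 were higher after 12 h (22.2% of all genes) and 21 after 24 h (16.6%). At 24 h, 9 were higher and 1 lower than at 12 h (0.85% and 1.28% of all genes), with BUB1, CENPA and CDC20 the largest. CCNB1, cyclin B1, was at 13.94 CPM in the CT1258 controls, 112.4 CPM after 12 h and 182.2 CPM after 24 h. In LNCaP, 16 of 24 were higher after 12 h at 0.05, AURKB and PLK1 among them, and 4 after 24 h. Of all LNCaP genes, 4.52% and 1.35% were higher at this threshold. The medians of both lists were close in LNCaP, at 1.331 for the G1/S targets and 1.361 for the G2/M genes after 12 h. A difference between the lists was not tested. These genes mark cells in division, and the part of such cells in the E2F values was not tested.

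**Figure D4:**
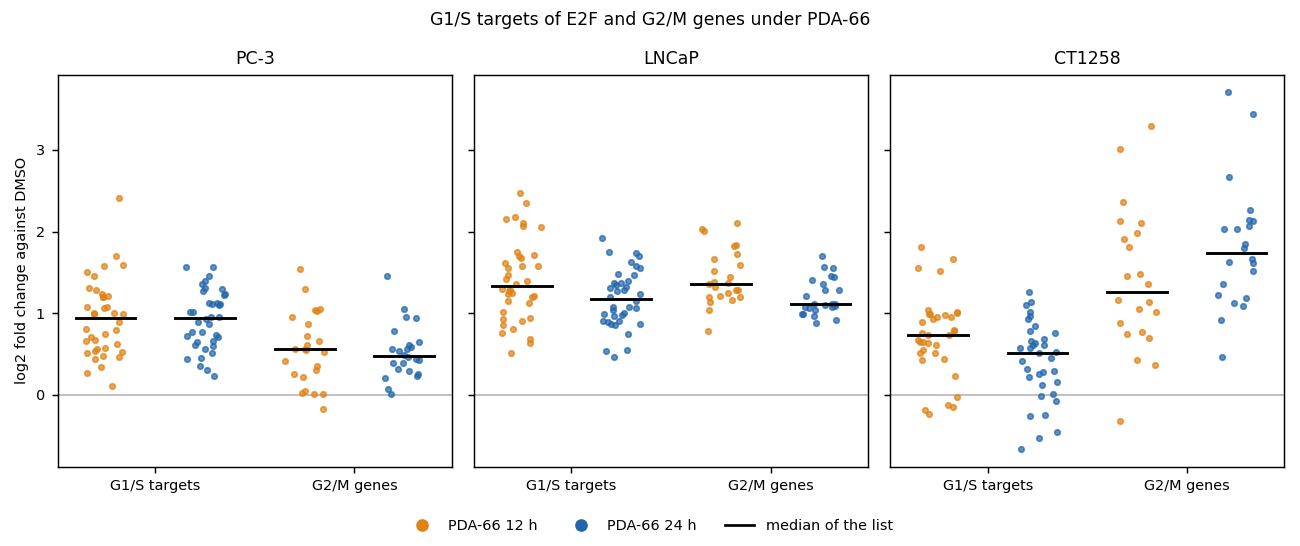
Log2 fold change against DMSO of single G1/S targets of E2F and of single G2/M genes in each cell line, after 12 h and 24 h, with the list median as a black line. In PC-3 the G1/S targets lie higher than the G2/M genes (medians 0.942 and 0.557 after 12 h), in CT1258 the G2/M genes lie higher (0.734 and 1.259), and in LNCaP the medians are close (1.331 and 1.361).

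Finally, the genes whose pattern was most like that of E2F1, E2F8 and RB1 were sought among 8265 genes tested in all 3 lines, by Pearson's r of log2 CPM over all 26 samples after centring within each cell line. The samples share treatment and library, so r describes likeness only. Closest to E2F1 were TK1 (0.982), FEN1 (0.973), NUP85 (0.965), RCC1 (0.96) and H2AFX (0.96). Within the single cell lines, TK1 had an r with E2F1 of 0.899 in PC-3, of 0.991 in LNCaP and of 0.987 in the canine line. Closest to E2F8 were BRIP1 (0.979), BRCA1 (0.97), ATAD2 (0.952), HELLS (0.946) and FAM111B (0.945). Closest to RB1 were UBA6 (0.94), AP1G1 (0.937), R3HDM1 (0.935), CAND1 (0.926) and MTMR2 (0.924), of which none is in the lists of cell cycle genes used here. The lowest r of these genes within a single line was 0.718 for RCC1 with E2F1 (CT1258), 0.837 for BRCA1 with E2F8 (PC-3) and 0.845 for MTMR2 with RB1 (CT1258). The samples included the LNCaP library that stood apart. Among the members, E2F1 and E2F2 had an r of 0.957 in LNCaP, 0.677 in CT1258 and 0.018 in PC-3.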

How the data were processed

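Single reads of poly(A) RNA were counted in 26 of 27 samples. A PC-3 DMSO sample that the study left out as an outlier has no counts here. By the study's methods, the authors mapped human reads with STAR 2.3.1s to HG19 and canine reads with BWA to CanFam3.1. The authors deposited whole read counts per gene, without normalization. Use of strand in counting and the treatment of reads that match several genes are not given in the sources used here. The numbering of a pair of PC-3 12 h samples is not clear from the labels, so they have no replicate number. Groups were taken from the labels.

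Cell lines were fitted separately in R 4.3.3 with edgeR 4.0.16 (filterByExpr, TMM, quasi-likelihood test, Benjamini-Hochberg adjustment over all genes, threshold 0.001), with all 3 groups in the fit. Response differences between cell lines used an interaction fit over the shared genes at 0.05, since human and canine genes were matched by symbol. The untreated human lines were compared in 1 fit. Log2 CPM used a prior count of 2. Intervals of fold changes are 95%, from the fitted SE and the quasi-likelihood test's degrees of freedom. The alternatives were DESeq2 1.42.0, limma 3.58.1 (voom with sample quality weights), other scalings, filters and thresholds, a replicate block, thinned controls and fits without 1 sample. The fits were checked on simulated data. Positions came from GENCODE on GRCh37 and promoters from RefSeq (GRCh38.p14). A canine genome was not used here, so levels per length cover the human lines.

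The members and lists were chosen with earlier results of these data known. All members were named in every comparison, TFDP1 and TFDP2 always, and of each list at most the 3 called genes with the largest log2 change per comparison, at 0.05 in LNCaP. A fold change is called at an adjusted p under 0.001 unless another threshold is named. Values of some genes on the lists are not reported here.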

Additional observations from a re-analysis of the deposited data

Results flagged for a closer look

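The following results differed between cell lines by the interaction test (edgeR quasi-likelihood, adjusted p under 0.05), given as differences of log2 fold changes against DMSO. For PC-3 minus LNCaP after 12 h, E2F1 differed by -1.09, E2F2 by -1.61 and E2F6 by 0.85. After 24 h, E2F2 differed by -1.18 and E2F5 by -0.68. For PC-3 minus CT1258 after 12 h, E2F4 differed by 0.78, E2F5 by -1.27 and E2F8 by -1.11. After 24 h, E2F5 differed by -1.46 and RBL1 by 1.00. For LNCaP minus CT1258 after 12 h, E2F1 differed by 1.37, E2F4 by 0.78, E2F5 by -1.07 and E2F6 by -1.1. After 24 h, E2F1 differed by 0.99, E2F2 by 1.42 and E2F5 by -0.78.

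The E2F5 values of CT1258 were positive and those of PC-3 negative in every PDA-66 group mean. Those of PC-3 missed the threshold used within single lines (edgeR quasi-likelihood test, adjusted p = 0.0467 after 12 h and 0.0113 after 24 h). The PC-3 groups overlapped after 12 h, and the 24 h value rested on the higher of the controls. The responses thus differed, but a fall of E2F5 in PC-3 was not established. The difference of E2F5 between PC-3 and LNCaP after 24 h was kept in 17 of 26 fits without 1 sample, and its adjusted p reached 0.358 without PC-3 DMSO replicate 3. E2F6 after 12 h differed between both human lines with an adjusted p of 0.00922, and its LNCaP value included the library that stood apart. The E2F4 difference between LNCaP and CT1258 after 12 h included this library too. Groups of 2 or 3 samples were too small for a test of single outlying samples.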

How the results depend on the processing

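Of 3880 values recomputed for 160 single-gene results, 3588 kept their direction and their side of the threshold, 120 newly passed it and 104 lost it. 68 changed sign, 0 of them called values, at an absolute log2 value of at most 0.617 and an adjusted p of at least 0.119. The cause was not tested in any case. Depth limits E2F2 in CT1258 most, and 2 PC-3 controls limit all PC-3 comparisons.

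With library size only, the PC-3 24 h values of E2F4 and E2F6 turned to 0.0333 and 0.0237, E2F2 in LNCaP (24 h against 12 h) to 0.0062, and for PC-3 minus LNCaP E2F4 (12 h) to 0.0875 and E2F7 (24 h) to 0.0439. With no filter, LNCaP minus CT1258 turned to 0.0771 for RB1 (12 h) and 0.003 for E2F7 (24 h). With limma voom and quality weights, E2F4 in LNCaP turned to -0.0013 (12 h), and for 24 h against 12 h E2F2 to 0.117, E2F4 to 0.1425 and E2F8 to -0.1163.

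With voom, 3 members were called in PC-3 24 h (14.3% of all genes), 4 in PC-3 24 h against 12 h (16.8%), 4 in LNCaP at each time (13.9% and 11.2%), 8 in CT1258 24 h (54.9%) and 5 in CT1258 24 h against 12 h (21%). The likelihood ratio test and DESeq2 each called 2 in LNCaP at each time (between 1.96% and 4.71% of all genes) and 3 in CT1258 24 h against 12 h (7.38% and 6.7%), where no filter (2.69%), only the 2 groups (12%), and thinned controls (2.9%) also gave 3. Only the 2 groups gave 2 in PC-3 24 h (12.2%). At 0.05, the counts were 1 in PC-3 24 h against 12 h (10.1%), 3 and 2 in LNCaP (9.14% and 2.92%), 8 in CT1258 24 h (62.1%), 5 in CT1258 24 h against 12 h (19.3%) and 5 between the untreated human lines. At 0.001, 4 members differed in response. For this count, and for the 5 members between the untreated human lines at 0.05, the shares of all genes are not given here. A further demand for a 2-fold change left 1 member in PC-3 at each time (14% and 8.87% of all genes), 2 members in CT1258 12 h (16.7%), 1 in CT1258 24 h (9.87%) and 0 for its 24 h against 12 h (0.445%).

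Samples with the same replicate number did not deviate together (r from -0.114 to 0.201 in PC-3, from -0.42 to 0.185 in LNCaP, from -0.189 to 0.153 in CT1258). For the PC-3 12 h pair of unclear numbering, the number in the column name was used, here and in the replicate block. With the replicate block, 2 members were called in PC-3 24 h (15% of all genes).

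With E2F7 and E2F8 as repressors, the balance changed by -0.489 (12 h) and -0.214 (24 h) for PC-3, by -0.011 and -0.091 for LNCaP, and by -1.228 and -0.767 for CT1258. With E2F1 as activator, LNCaP had 1.469 and 0.903, and PC-3 12 h had 0.367.

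With 1 sample omitted, these single-gene values took both signs (lowest to highest). PC-3 12 h against DMSO gave E2F2 -0.2035 to 0.1065. PC-3 24 h against DMSO gave E2F4 -0.1493 to 0.0204 and E2F6 -0.1685 to 0.0536. LNCaP 12 h against DMSO gave E2F4 -0.0323 to 0.4149. LNCaP 24 h against 12 h gave E2F2 -0.1734 to 0.121, E2F4 -0.29 to 0.1616, E2F8 -0.1747 to 0.2005, RB1 -0.0056 to 0.568 and RBL1 -0.0265 to 0.3928. CT1258 24 h against DMSO gave E2F2 -0.1766 to 0.184. CT1258 24 h against 12 h gave E2F5 -0.0538 to 0.088. PC-3 minus LNCaP 12 h gave E2F4 -0.2209 to 0.2688, E2F5 -0.4902 to 0.0803, E2F7 -0.5943 to 0.4213 and RB1 -0.0246 to 0.5243. PC-3 minus LNCaP 24 h gave E2F3 -0.0777 to 0.1989, E2F6 -0.0742 to 0.1497, E2F7 -0.7301 to 0.2858 and RB1 -0.1215 to 0.3271. PC-3 minus CT1258 24 h gave E2F1 -0.1025 to 0.2565 and E2F7 -0.1573 to 0.0343. LNCaP minus CT1258 12 h gave E2F3 -0.3248 to 0.0479, E2F7 -1.0121 to 0.0035 and RB1 -0.1947 to 0.2706. LNCaP minus CT1258 24 h gave E2F7 -0.3991 to 0.6167 and E2F8 -0.0239 to 0.74. PC-3 DMSO minus LNCaP DMSO gave RBL1 -0.3018 to 0.198. The number of members called changed along with the share of all genes called. In PC-3 24 h, with a PDA-66 sample omitted, it was as low as 2, where 11.3% to 15.8% of all genes were called. In LNCaP it ranged from 0 to 1 at each time (0% to 1.96% of all genes after 12 h, 0% to 0.787% after 24 h). It ranged from 3 to 5 in CT1258 24 h (21.2% to 46.6%) and from 0 to 4 in CT1258 24 h against 12 h (0.201% to 13.6%). Between the untreated human lines it ranged from 0 to 2, with the shares of all genes not given here.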
